A study of Mus musculus with 9 samples.

Results

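The heat shock proteins and DNAJ chaperones are the cell's main protein-folding helpers, and their RNA was measured here in regulatory T cells (Tregs) of mice with an injured heart. Members were chosen by symbol: the Hsp70 family (Hspa followed by a number), the small heat shock proteins (Hspb followed by a number), the Hsp90 family, the single genes Hspd1, Hspe1 and Hsph1, and the J-domain families Dnaja, Dnajb and Dnajc. Names that mark pseudogenes were left out. This gave 72 of the 49510 genes in the table, 27 of them heat shock proteins and 45 of them DNAJ genes. The 3 groups were Tregs of the injured heart, of the mediastinal lymph node (MLN, the node draining it) and of the spleen. All animals were of the Foxp3-GFP strain, in which green fluorescent protein reports Foxp3, the factor that defines Tregs. Their age was 8 weeks, and Tregs were isolated on day 3 after ischemia/reperfusion (I/R) injury. In this injury, blood flow to the heart muscle is stopped and restored. Each organ had 3 libraries, and no uninjured animals were analysed here. Cells were enriched on magnetic beads and sorted by flow cytometry, and a SMARTer low-input kit was used for the libraries, per the labels' protocols. The labels do not say if an organ's libraries stem from separate or pooled animals. The p-values thus cover just the spread between these samples, which may be technical.

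Hsp70 proteins bind unfolded stretches of other proteins and release them in a cycle driven by ATP. J-domain proteins (DNAJA, DNAJB and DNAJC) bring clients to Hsp70 and start its ATP hydrolysis, and Hsp90 takes over nearly folded clients such as kinases and receptors. Small heat shock proteins hold denatured proteins without using ATP. In cells exposed to heat, low oxygen or misfolded proteins, heat shock factor 1 binds repeated GAA units in promoters and raises the inducible members, while misfolding inside the endoplasmic reticulum (ER) raises ER members through another set of factors.

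The promoter stretches of 7 members are shown because they carry these response elements and because the results below turn on several of the genes. They lie upstream of the RefSeq start on GRCm38.p6 and are written 5′ to 3′ on the gene's strand. Capitals in the first 4 mark heat shock elements and in the last 3 the ER stress element. Hspa1a is at chr17:34972157-34972406 and Hspa1b at chr17:34959239-34959488, both on the minus strand, and Hspb1 is at chr5:135887669-135887918 on the plus strand. The stretch of Hspe1, chr1:55088053-55088082 on the plus strand, lies between the RefSeq starts of Hspe1 and the neighbouring Hspd1, which is read the other way. In the GENCODE vM21 annotation it falls within Hspd1 (chr1:55077835-55088243). The ER members are Hspa5 at chr2:34772020-34772049 and Dnajc3 at chr14:118937812-118937931, both on the plus strand, and Hsp90b1 at chr10:86705510-86705694 on the minus strand.
Hspa1a: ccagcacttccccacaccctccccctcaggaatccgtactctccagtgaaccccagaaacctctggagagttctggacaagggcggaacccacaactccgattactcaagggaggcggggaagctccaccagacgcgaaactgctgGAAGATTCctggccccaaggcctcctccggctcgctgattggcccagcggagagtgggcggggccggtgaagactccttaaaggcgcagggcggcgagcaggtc
Hspa1b: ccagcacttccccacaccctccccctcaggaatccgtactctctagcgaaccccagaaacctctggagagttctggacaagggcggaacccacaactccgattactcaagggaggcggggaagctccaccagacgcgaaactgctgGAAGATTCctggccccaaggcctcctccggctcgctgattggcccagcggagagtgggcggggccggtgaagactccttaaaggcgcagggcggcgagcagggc
Hspb1: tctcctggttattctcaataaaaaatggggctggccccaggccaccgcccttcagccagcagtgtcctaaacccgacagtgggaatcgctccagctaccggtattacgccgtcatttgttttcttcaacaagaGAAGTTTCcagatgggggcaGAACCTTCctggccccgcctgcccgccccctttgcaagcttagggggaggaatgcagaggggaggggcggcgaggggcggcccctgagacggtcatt
Hspe1: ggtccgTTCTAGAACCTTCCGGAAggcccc
Hspa5: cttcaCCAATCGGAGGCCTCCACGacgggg
Hsp90b1: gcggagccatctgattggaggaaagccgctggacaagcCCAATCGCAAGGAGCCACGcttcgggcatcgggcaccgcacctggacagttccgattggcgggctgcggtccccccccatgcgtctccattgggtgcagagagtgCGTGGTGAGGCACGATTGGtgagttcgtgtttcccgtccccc
Dnajc3: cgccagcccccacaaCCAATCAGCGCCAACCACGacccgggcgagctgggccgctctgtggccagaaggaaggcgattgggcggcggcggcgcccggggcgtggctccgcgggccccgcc
Windows of 300 bases, 250 before and 50 after the start, were at hand for 58 of the 72 members, and both strands were searched. The windows of Hspa1a and Hspa1b differ at 4 of 300 bases. GAANNTTC, a pair of facing heat shock units, was found in 14 of the 58 members (24.1%), among them Hspa1a, Hspa1b and Hspb1, and in 9.04% of all 27025 genes with a window (7.86% of all 32851 windows). The same pair followed after 2 bases by another GAA, which always contains the shorter motif, was found in Dnajb6, Hspd1, Hspe1 and Hsph1, which is 6.9% of the members with a window, and 0.662% of all genes (0.603% of windows). The ER stress element, CCAAT and after 9 further bases CCACG, was found in Dnajc3, Hsp90b1 and Hspa5, which is 5.17% of those members, and 0.137% of all genes (0.119% of windows). A match describes letters only.

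The deposited values are read counts per gene, and levels below are CPM, a library's counts scaled to a common size, after trimmed mean of M-values (TMM) scaling. Total counts ranged from 156194012 to 267520538 per library. In each organ 1 library had the highest scaling factor: heart 2 (1.11), MLN 3 (1.17) and spleen 3 (1.24). Foxp3 itself had 8.77, 38.0 and 0.240 CPM in heart Tregs, 42.4, 41.8 and 46.3 CPM in MLN Tregs and 31.2, 32.6 and 187 CPM in spleen Tregs, so heart library 3 carried very little of it. The summed Treg identity list of 14 genes lay between 2141 to 2378 CPM in heart libraries, against 3410.5 to 5847 in MLN and 4274 to 4917 in spleen libraries, and its member Ikzf2, a Treg transcription factor, was called lower in heart than in spleen Tregs (edgeR adjusted p = 0.0492). Markers of other cells were high in the heart libraries. The fibroblast and matrix list summed to 6060.3 to 23552 CPM there, against 4.95 to 45.2 CPM in MLN and 8.73 to 53.9 CPM in spleen libraries. For the macrophage and monocyte list the sums were 6760 to 12852 CPM in heart, 340.01 to 848 CPM in MLN and 1159 to 2697 CPM in spleen libraries. In these bulk samples a change in the mix of cells and a change of RNA within a cell cannot be told apart, and this touches every comparison with the heart below.

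Most of the chaperones were detected in every organ. Of the 72, 46 had a count in all 9 libraries (63.9%, against 20.4% of all genes in the table) and 6 had none anywhere. The low-count filter kept 61 for testing, and 45 of these averaged at least 10 CPM in some organ (73.8%, against 54.5% of all tested genes). Summed over the 72, the level was 8494, 5984 and 6541 CPM in heart libraries 1, 2 and 3, 6824, 7072 and 5913 CPM in MLN libraries and 6856, 5565 and 8681 CPM in spleen libraries, so the total overlapped between the organs. Per kilobase of exon, Hsp90aa1 had the highest level (194 CPM per kb over all libraries), followed by Dnajc24 (188), Dnajc8 (161), Hspa8 (146) and Dnajc17 (122). This order is approximate, because reads of some of these genes are hard to assign. Of their 50-base stretches, 47.5% in Hsp90aa1, 38.6% in Hspa8, 13.9% in Dnajc17, 4.18% in Dnajc8 and 0.0% in Dnajc24 also occur in other genes. The spread between libraries of 1 organ was wide: among members at 10 CPM or more, the median coefficient of variation was 50.03% in the heart, 22.5% in the MLN and 39.0% in the spleen, against 51.6%, 32.8% and 48.3% over all tested genes at that level.

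In the heart against the spleen, the inducible Hsp70 gene Hspa1b was higher and was the 1 member that passed the test, while most abundant chaperones kept overlapping levels. A gene was called at an adjusted p under 0.05 in edgeR's quasi-likelihood test, with Benjamini-Hochberg adjustment over all 16609 genes tested. That rule called 0.614% of all genes higher and 0.175% lower in the heart, so 1 called member of 61 is near the background of 0.789%. An unadjusted p under 0.05 was found for 9 members (14.8%) and for 13.6% of all genes. All 3 heart libraries lay above all 3 spleen libraries for 11 members (18.0%), against 12.4% of all genes: Hspa1a, Hspa1b, Hspa4l, Hspa12b, Hspa13, Hspa14, Hspb1, Hspb2, Dnajb6, Dnajb14 and Dnajc21. They lay below for 7 members (11.5%), against 6.9% of all genes: Dnaja3, Dnajb9, Dnajb12, Dnajc2, Dnajc3, Dnajc16 and Dnajc27. The median log2 fold change was 0.02 over the tested members and 0.02 over all genes. With upper-quartile scaling the median over all genes moves to -0.17, and for the heart against the MLN to -0.14 in place of 0.12, so small fold changes below should be read against those shifts. DESeq2 called 9 of 62 members in this comparison, against 13.4% of all genes, and limma-voom called 5 of 61, against 6.87%.

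In the heart against the MLN no member passed edgeR's test, against 1.38% of all genes, 1.1% called higher and 0.283% lower. An unadjusted p under 0.05 was found for 7 members (11.5%), against 15.5% of all genes, and DESeq2 called 5, against 16.0%, while limma-voom called 2 (8.02% of all genes). The libraries did not overlap for 9 members higher in the heart (Hspa1a, Hspa2, Hspa12b, Hspb1, Hspb2, Dnajb2, Dnajb14, Dnajc11 and Dnajc13), a share of 14.8% against 14.9% of all genes. They did not overlap for 6 members lower in the heart (Hspd1, Dnaja3, Dnajc2, Dnajc3, Dnajc9 and Dnajc27), 9.84% against 11.2% of all genes. The median log2 fold change was 0.18 over the tested members and 0.12 over all genes.

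In the MLN against the spleen no member passed edgeR's test, and 0.0% of all genes did. An unadjusted p under 0.05 was found for 6 members (9.84%), against 5.75% of all genes, and DESeq2 called 2, Hspa1a and Hspa1b, against 4.84% of all genes, while limma-voom called 0 (0.0181% of all genes). Libraries did not overlap for 5 members higher in the MLN (Hspa1a, Hspa1b, Hspb11, Dnaja1 and Dnajc21; 8.2% against 4.52% of all genes) and for Dnajb11 lower in the MLN (1.64% against 4.56%). The 3 comparisons share their libraries in pairs, so their values are given side by side and not as separate evidence.

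**Figure D1:**
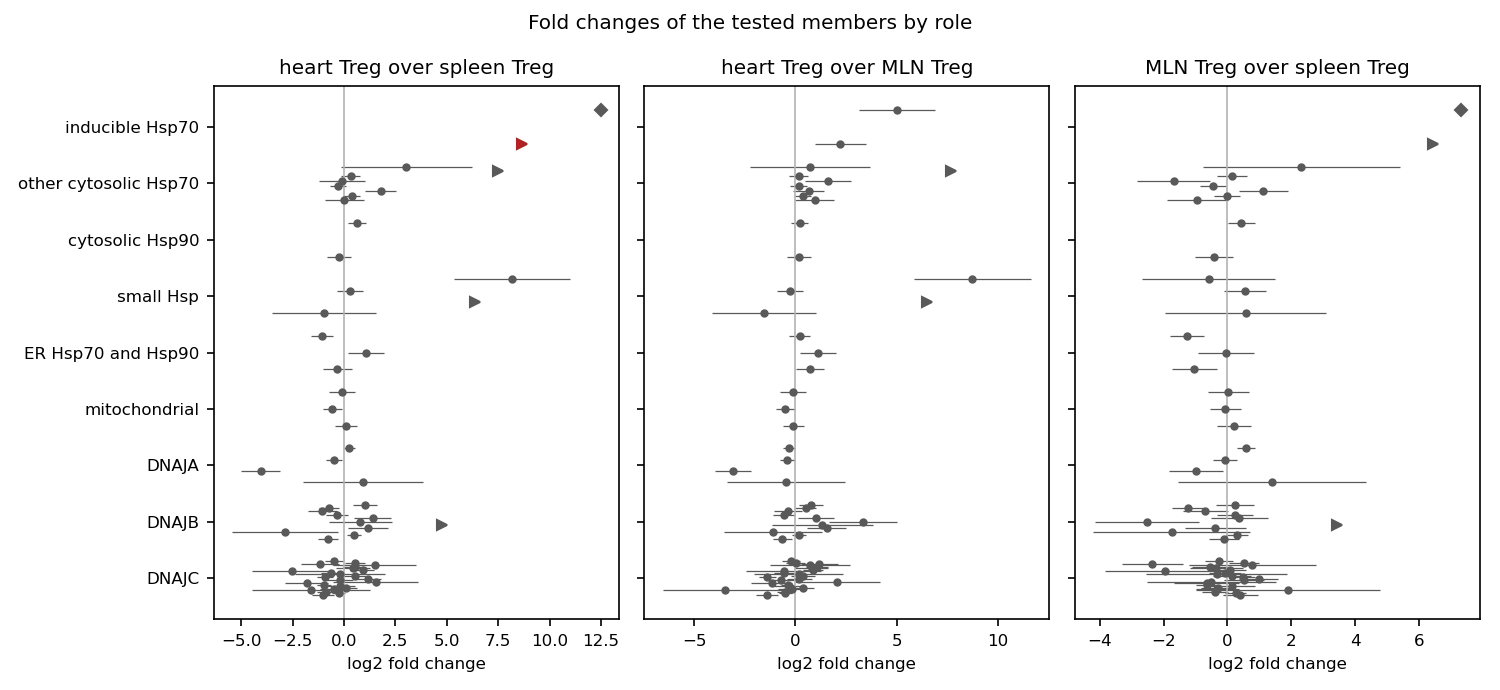
Log2 fold change of each tested member (x axis) by role (y axis) in heart over spleen, heart over MLN and MLN over spleen Tregs. Points with bars are edgeR estimates with their SE, triangles pointing right are lower bounds against an organ with no count, and diamonds are count ratios against an organ with 2 counts. Red marks an adjusted p under 0.05, which Hspa1b alone reached, in heart over spleen, where its bound was 399-fold. Most members of the other roles sit near 0.

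Hspa1a and Hspa1b encode the stress-inducible cytosolic Hsp70, and their RNA was present in every heart library and nearly absent from the spleen. Hspa1b had 7.55, 8.08 and 1.87 CPM in heart libraries 1, 2 and 3, 2.09, 1.09 and 0.599 CPM in MLN libraries and no count in any of the 3 spleen libraries. Hspa1b therefore rose in the heart at least 399-fold over the spleen, taking 3 counts in each spleen library as the floor (edgeR adjusted p = 0.0475). The call is narrow: it was lost when any 1 of the 9 libraries was left out, with adjusted p-values between 0.0689 and 0.149. Hspa1a had 18.7, 29.3 and 2.91 CPM in heart libraries, 0.836, 0.720 and 0.0155 CPM in MLN libraries and 0, 0.00945 and 0 CPM in spleen libraries. Against the spleen this is 11321 counts to 2, a ratio of 5720.0 with a 95% counting interval of 1583 to 47238 that covers counting error only, and it missed the threshold (adjusted p = 0.0704). Heart library 3 was the lowest of the heart for both genes, and the heart libraries still lay above every spleen library.

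The MLN stood between the other organs for both inducible genes. Against the MLN, Hspa1a in the heart had a log2 fold change 5.02, SE 1.86, adjusted p = 0.239 (edgeR), and its libraries did not overlap. Hspa1b overlapped between heart and MLN, because heart library 3 (1.87 CPM) lay under MLN library 1 (2.09 CPM) (log2 fold change 2.21, edgeR adjusted p = 0.491). The MLN exceeded the spleen at least 86.2-fold for Hspa1b (edgeR adjusted p = 0.572). Hspa1a had 338 counts in the MLN to 2 in the spleen, a ratio of 161 with a counting interval of 44.2 to 1335. That interval covers counting error only, and the difference did not pass edgeR's test (adjusted p = 0.839). Hspa1a was above Hspa1b in 3 of 3 heart libraries and in 0 of 3 MLN libraries.

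Hspa1a (chr17:34969190-34972156) and Hspa1b (chr17:34956436-34959238) are neighbouring genes on the minus strand of GRCm38 in GENCODE vM21, and their reads are hard to assign. Of the 50-base stretches of their transcripts, 60.4% in Hspa1a and 62.3% in Hspa1b also occur in the other copy or in the related Hspa1l. Adding the counts of both genes into 1 row, an alternative chosen after seeing the data, gave a log2 fold change of 12.58 (SE 2.02) and an edgeR adjusted p of 0.0394 for the heart against the spleen, 3.68 (SE 1.37) and 0.243 for the heart against the MLN, and 8.91 (SE 1.78) and 0.684 for the MLN against the spleen. The summed row thus passed the test in the same comparison as Hspa1b. Hspa1l, a testis-type Hsp70, had counts in 2 heart libraries only and did not pass the filter.

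Most genes that respond to tissue dissociation were higher in the heart than in the MLN, while against the spleen they went both ways. The list of 17 immediate early and dissociation genes summed to 3149, 6259.8 and 3098 CPM in heart libraries 1, 2 and 3, 1185, 1155 and 1346 CPM in MLN libraries and 1185, 2004 and 4293 CPM in spleen libraries. Of its 17 genes, 4 had heart libraries wholly above the spleen (23.5%, against 12.4% of all genes) and 10 wholly above the MLN (58.8%, against 14.9%), and all 17 were detected in every organ. For heart over spleen 9 fold changes were above 0 and 8 below, and Klf2 lay wholly below (5.88%, against 6.9% of all genes). For heart over MLN 16 of 17 were above 0. Heart library 2 was highest for this list, for Hspa1a and for Hspa1b. Spleen library 3 had a higher sum than heart libraries 1 and 3 and no count of Hspa1a or Hspa1b. The part of dissociation in the inducible Hsp70 values was not tested.

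**Figure D2:**
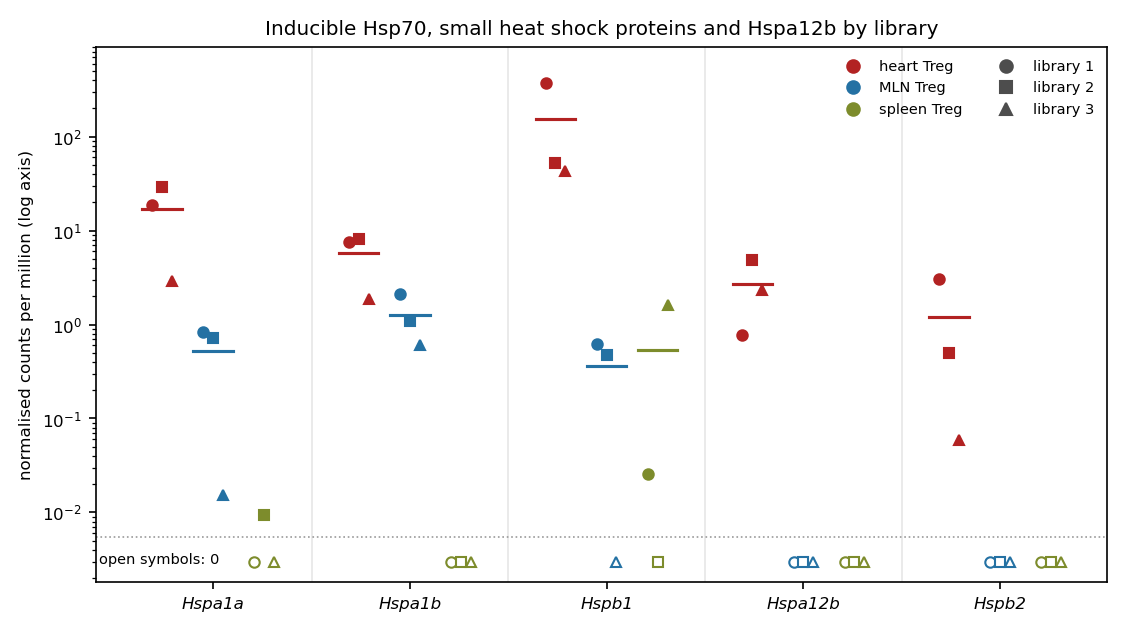
CPM on a log axis (y) of 5 genes (x) in each library, with heart, MLN and spleen Tregs from left to right within a gene. Symbols are libraries 1 to 3, short lines are means and open symbols at the bottom are libraries with 0 counts. All heart symbols of these 5 genes lie above all spleen symbols, and Hspb1 in heart library 1 (371 CPM) is the highest value.

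The small heat shock protein Hspb1, a holder of denatured proteins that is abundant in muscle and stromal cells, was seen almost only in the heart. It had 371, 52.9 and 43.6 CPM in heart libraries 1, 2 and 3, 0.619, 0.473 and 0 CPM in MLN libraries and 0.0257, 0 and 1.60 CPM in spleen libraries. The heart libraries did not overlap with either organ, but library 1 carried most of the signal. The fold change had a wide error against both the spleen (log2 fold change 8.16, SE 2.82, adjusted p = 0.226) and the MLN (log2 fold change 8.74, SE 2.89, adjusted p = 0.177), and neither passed edgeR's test. Hspb1 lies at chr5:135887919-135889563 on the plus strand, and 48.8% of its 50-base stretches also occur in the pseudogene Hsp25-ps1. Hspb2, a small heat shock protein of muscle named after its values were seen, had 3.03, 0.499 and 0.0588 CPM in the heart and no count in the other 6 libraries. Its level is at least 82.0-fold that of the spleen (edgeR adjusted p = 0.196) and at least 90.9-fold that of the MLN (adjusted p = 0.17), bounds that are 19.1-fold and 21.2-fold without heart library 1, and its exons overlap those of Cryab on the other strand by 252 bases.

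The remaining small heat shock proteins gave little signal. Hspb8, a partner of Bag3, had 5.04, 0 and 0 CPM in the heart and none elsewhere, so 1 library held all of it. Hspb6, known from muscle, overlapped between the organs at 1.75 CPM or less in every library. Hspb11, which despite its name is a part of the intraflagellar transport machinery, had 33.6, 6.43 and 19.6 CPM in heart Tregs, 26.03, 22.2 and 23.6 CPM in MLN Tregs and 18.5, 20.7 and 9.55 CPM in spleen Tregs, and MLN libraries lay above spleen libraries (log2 fold change 0.56, edgeR adjusted p = 1). Hspb3 and Hspb7 had no count in any library, and Hspb9 had counts in heart library 1 alone.

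Hspa12b, a distant Hsp70 relative known from endothelial cells, was also confined to heart libraries among the 9, with 0.774, 4.90 and 2.35 CPM and no count in MLN or spleen libraries. That is at least 183-fold the spleen level (edgeR adjusted p = 0.12) and at least 203-fold the MLN level (adjusted p = 0.107), and neither passed. Without heart library 2 the bounds are 107-fold and 119-fold. It was named after its values were seen. Its relative Hspa12a had 1.76, 0 and 33.2 CPM in heart Tregs, 10.1, 10.4 and 0.777 CPM in MLN Tregs and 0, 0 and 4.25 CPM in spleen Tregs, and heart library 3 alone exceeded every other library (log2 fold change 3.04, SE 3.18, adjusted p = 0.868 against the spleen by edgeR, and -0.69 without heart library 3).

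Markers of non-immune heart cells were also high in the heart libraries. The fibroblast and matrix list summed to 23552, 6865 and 6060.3 CPM in heart libraries 1, 2 and 3, and Hspb1 and Hspb2 were both highest in heart library 1. All 12 of its genes had heart libraries wholly above those of the MLN and of the spleen, against 14.9% and 12.4% of all genes, and Lum, Pdgfra and Sparc were at 0 in the MLN. The endothelial list summed to 1991, 642 and 843 CPM in heart libraries, 95.2 to 125 CPM in MLN and 99.5 to 218 CPM in spleen libraries, with 7 of its 9 tested genes wholly above the spleen and Kdr, Cldn5 and Emcn at 0 there. Hspa12b had the opposite order to that list, highest in heart library 2 and lowest in heart library 1. Cardiomyocyte genes summed to 282, 300.0 and 559 CPM in heart, 9.40 to 31.8 CPM in MLN and 18.7 to 61.8 CPM in spleen libraries. Of the 17 listed, 12 were tested. Heart libraries lay wholly above the spleen for 10 of these (83.3%, against 12.4% of all genes) and wholly below it for Ttn. Of immune cells, mast cell genes summed to 8233, 5055 and 12.8 CPM in heart libraries 1, 2 and 3. Macrophage and monocyte genes summed to 12236.5, 6760 and 12852 CPM in these libraries, and neutrophil genes to 776, 683 and 3888 CPM. The part of all these cells in the Hspb1, Hspb2 and Hspa12b values was not tested.

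**Figure D3:**
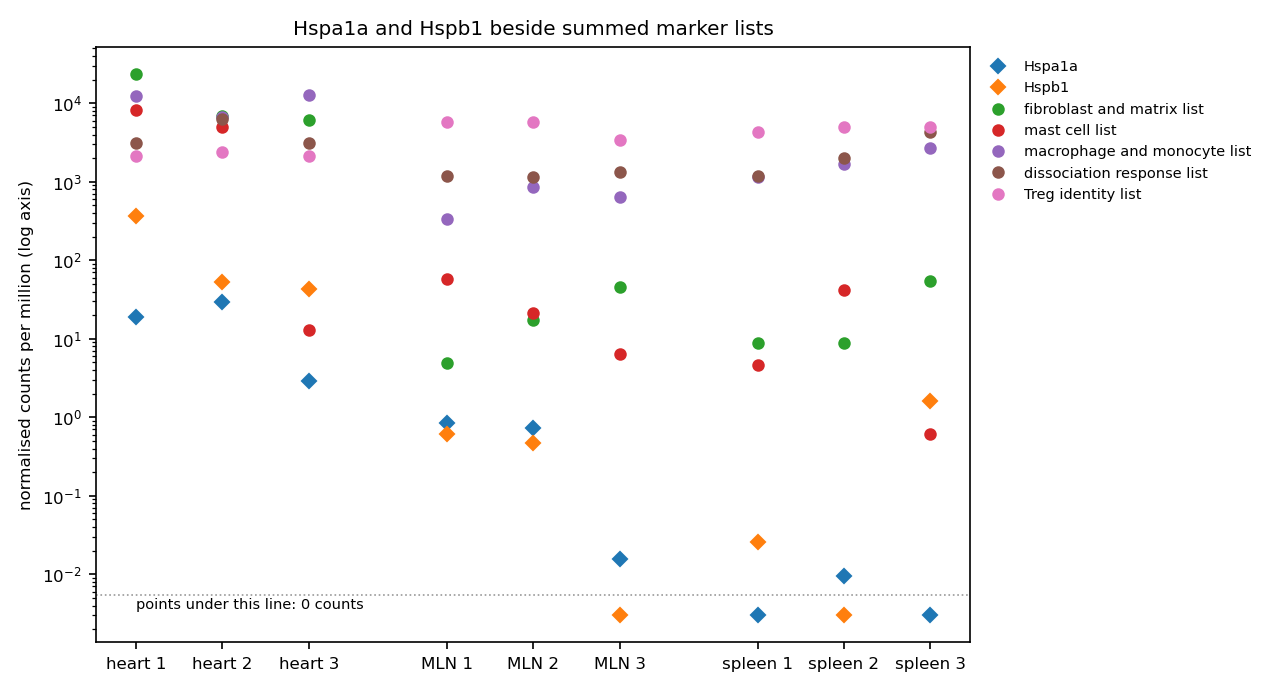
CPM on a log axis (y) of Hspa1a and Hspb1 (diamonds) and of 5 summed marker lists (circles) in each of the 9 libraries (x), heart, MLN and spleen from left to right. Hspb1, the fibroblast and matrix list and the mast cell list are all highest in heart 1. Hspa1a and the dissociation list are both highest in heart 2 among the heart libraries.

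The abundant cytosolic Hsp90 and Hsp70 genes overlapped between the organs. Hsp90aa1, the inducible Hsp90 isoform, had 1444, 467 and 846 CPM in heart Tregs, 871, 879 and 619 CPM in MLN Tregs and 702, 521 and 529 CPM in spleen Tregs (log2 fold change 0.65, SE 0.43, adjusted p = 0.641 for heart over spleen, edgeR). Hsp90ab1, the constitutive isoform, had 376, 442 and 143 CPM in heart Tregs, 242, 263 and 345 CPM in MLN Tregs and 217, 203 and 715 CPM in spleen Tregs (log2 fold change -0.24, SE 0.59, adjusted p = 0.973). Hspa8, the constitutive Hsp70 that also strips clathrin from vesicles, had 889.8, 833 and 496 CPM in heart Tregs, 563, 609 and 538 CPM in MLN Tregs and 471, 352 and 889 CPM in spleen Tregs (log2 fold change 0.37, SE 0.41, adjusted p = 0.878). For all 3 the libraries of the organs overlapped, and spleen library 3 was high for Hsp90ab1 and Hspa8, at 3.40 and 2.16 times the mean of the other two spleen libraries. The Hsp90ab1 fold change for heart over spleen was 0.61 without spleen library 3 and 0.11 without heart library 3.

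The nucleotide exchange relatives of Hsp70 did not pass the test either. Hspa4, a constitutive Hsp110 relative, had 120.1, 189.6 and 177 CPM in heart Tregs, 148, 160.3 and 126 CPM in MLN Tregs and 122, 158 and 315 CPM in spleen Tregs, and the organs overlapped. Hsph1, an Hsp110 protein that recharges Hsp70 and is itself heat inducible, had 34.6, 2.39 and 24.4 CPM in heart Tregs, 13.5, 8.23 and 9.88 CPM in MLN Tregs and 8.40, 13.5 and 38.7 CPM in spleen Tregs, and heart library 2 held the lowest value of all 9 although it was highest for Hspa1a (log2 fold change 0.02, SE 0.94, adjusted p = 1 for heart over spleen, edgeR). Leaving out 1 library at a time gave fold changes between -0.59 and 0.90, below 0 without heart 1, heart 3, spleen 1 or spleen 2. Hspa4l, another Hsp110 relative, had 13.8, 18.8 and 27.8 CPM in heart Tregs, 7.92, 10.7 and 19.8 CPM in MLN Tregs and 1.90, 9.94 and 5.73 CPM in spleen Tregs. Its heart libraries lay above all spleen libraries, with a log2 fold change 1.78, SE 0.77, adjusted p = 0.36 that missed the threshold, and its MLN libraries lay between with overlap (log2 fold change 1.13 for MLN over spleen).

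The J-domain partners of cytosolic Hsp70 showed the same overlap. Dnajb1, the heat-inducible partner of Hspa1a, had 57.9, 81.5 and 19.6 CPM in heart Tregs, 36.8, 27.0 and 29.7 CPM in MLN Tregs and 15.98, 22.0 and 40.9 CPM in spleen Tregs, so the heart values ran from the second-lowest to the highest of the 9 libraries (log2 fold change 1.01, SE 0.59, adjusted p = 0.566 for heart over spleen, edgeR). Dnaja1, a constitutive partner, had 168, 121 and 136 CPM in heart Tregs, 183, 181 and 165 CPM in MLN Tregs and 139, 113 and 100.4 CPM in spleen Tregs. Its MLN libraries lay wholly above the spleen libraries (log2 fold change 0.59, SE 0.29, adjusted p = 0.839), and its heart libraries overlapped with the spleen (log2 fold change 0.27, SE 0.29, adjusted p = 0.873).

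**Figure D4:**
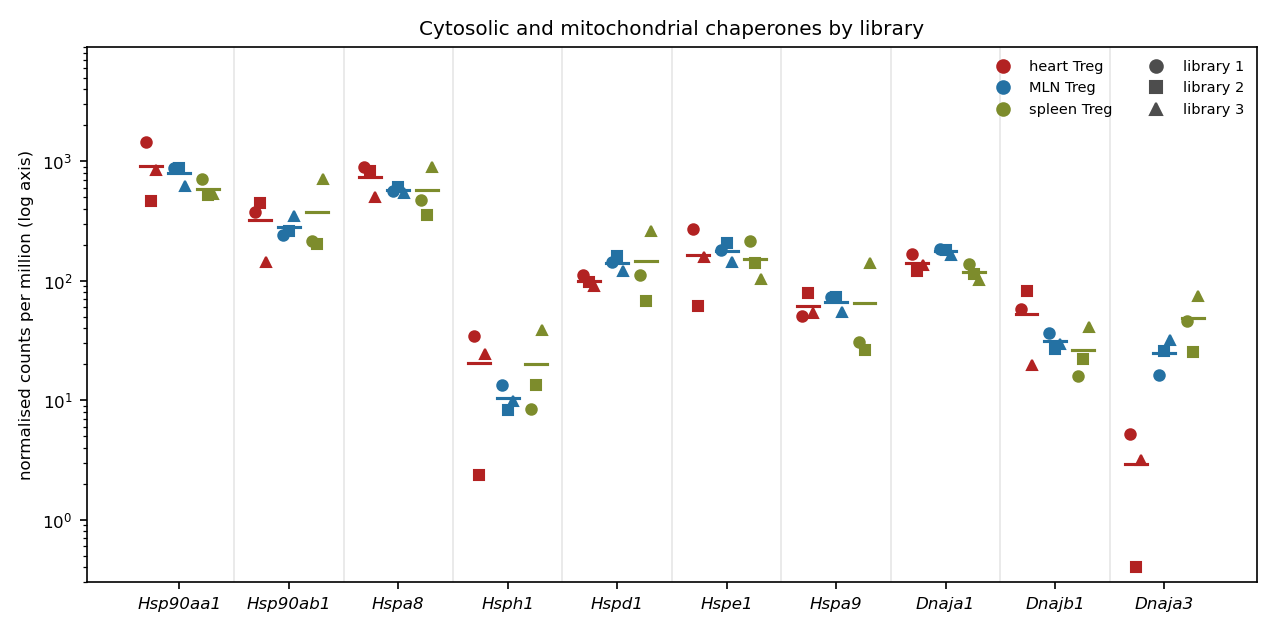
CPM on a log axis (y) of 10 cytosolic and mitochondrial chaperones (x) in each library, with heart, MLN and spleen Tregs from left to right within a gene. Symbols are libraries 1 to 3 and short lines are means. Only Dnaja3, at the right, shows heart libraries wholly below both lymphoid organs among the genes drawn, apart from Hspd1, whose heart libraries lie below the MLN alone.

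The mitochondrial J-domain protein Dnaja3, a partner of mitochondrial Hsp70, had the lowest heart levels relative to the other organs among members at 10 CPM or more. It had 5.22, 0.403 and 3.18 CPM in heart Tregs, 16.4, 25.7 and 32.1 CPM in MLN Tregs and 45.8, 25.5 and 74.6 CPM in spleen Tregs, and every heart library lay below every MLN and spleen library. The fold change was large in both comparisons, with a log2 fold change -4.05, SE 0.94, adjusted p = 0.0878 against the spleen and a log2 fold change -3.08, SE 0.90, adjusted p = 0.131 against the MLN, and neither passed edgeR's test. MLN and spleen libraries overlapped (log2 fold change -0.98, SE 0.84, adjusted p = 1 for MLN over spleen). Dnaja3 lies at chr16:4639989-4707695 on the plus strand and shares exon bases with Coro7 on the other strand and Vasn on the same strand, over 313 bases.

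The matrix chaperonins of mitochondria overlapped between organs. Hspd1 and Hspe1, the Hsp60 and Hsp10 that form the folding chamber, are read from opposite strands of the stretch shown above. Hspd1 had 112, 97.9 and 89.5 CPM in heart Tregs, 142, 161 and 119.7 CPM in MLN Tregs and 112, 68.1 and 261 CPM in spleen Tregs, and heart libraries lay below the MLN but not below the spleen (log2 fold change -0.56, SE 0.48, adjusted p = 0.798 for heart over spleen, edgeR). Hspe1 had 272, 61.3 and 159 CPM in heart Tregs, 181, 208 and 143 CPM in MLN Tregs and 214, 141 and 104 CPM in spleen Tregs (log2 fold change 0.10, SE 0.53, adjusted p = 0.994). Although the genes share a promoter region, heart library 2 was lowest of the 9 for Hspe1 and near the other heart libraries for Hspd1. Hspa9, the mitochondrial Hsp70, had 51.1, 78.7 and 53.9 CPM in heart Tregs, 73.5, 72.4 and 55.1 CPM in MLN Tregs and 30.7, 26.2 and 139.6 CPM in spleen Tregs (log2 fold change -0.10, SE 0.64, adjusted p = 0.994), and spleen library 3 was 4.91 times the mean of the other two spleen libraries. Without spleen library 3 the fold changes for heart over spleen were 1.11 for Hspa9, 0.15 for Hspd1 and -0.12 for Hspe1. Without heart library 1 they were 0.02 for Hspa9 and -0.47 for Hspe1.

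Within the ER, heart and spleen Tregs overlapped for the main chaperones, and spleen library 3 stood far above the rest. Hspa5, known as BiP, the Hsp70 of the ER lumen, had 208, 156 and 63.9 CPM in heart Tregs, 99.2, 95.7 and 66.0 CPM in MLN Tregs and 94.7, 64.4 and 379 CPM in spleen Tregs (log2 fold change -0.33, SE 0.70, adjusted p = 0.967 for heart over spleen and log2 fold change -1.04, SE 0.71, adjusted p = 1 for MLN over spleen, edgeR). Hsp90b1, the Hsp90 of the ER, had 371, 392 and 306 CPM in heart Tregs, 369, 296 and 265 CPM in MLN Tregs and 624, 254 and 1367 CPM in spleen Tregs (log2 fold change -1.07, SE 0.54, adjusted p = 0.451 for heart over spleen and log2 fold change -1.27, SE 0.54, adjusted p = 0.839 for MLN over spleen). Spleen library 3 was 4.76 times the mean of the other two spleen libraries for Hspa5 and 3.11 times for Hsp90b1. Without spleen library 3 the Hsp90b1 fold changes were -0.30 for heart over spleen and -0.50 for MLN over spleen. The Hspa5 fold changes were then 0.84 for heart over spleen and 0.13 for MLN over spleen, and without heart library 3 the first was 0.02. The plasma cell list, whose cells are rich in ER, summed to 8009, 18492 and 5319 CPM in spleen libraries 1, 2 and 3. Its part in the ER values was not tested.

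ER members of the DNAJ family followed several patterns. Dnajc3, an ER cochaperone that carries the ER stress element, had 266, 243 and 190.0 CPM in heart Tregs, 267, 309 and 323 CPM in MLN Tregs and 476, 294 and 620.4 CPM in spleen Tregs. Its heart libraries lay wholly below both organs, but heart library 1 (266 CPM) and MLN library 1 (267 CPM) were nearly equal. The log2 fold change was -0.99 for heart over spleen (edgeR adjusted p = 0.224) and -0.36 for heart over MLN (edgeR adjusted p = 0.75). Dnajc3 was named after its values were seen. Dnajb11, which delivers nascent chains to Hspa5, had 59.5, 180.4 and 72.9 CPM in heart Tregs, 62.8, 63.0 and 95.2 CPM in MLN Tregs and 125, 148 and 242 CPM in spleen Tregs, and MLN libraries lay below the spleen (log2 fold change -1.22, SE 0.50, adjusted p = 0.839). Dnajb9, which represses the stress sensor Ire1 and aids degradation, had 52.2, 24.5 and 43.3 CPM in heart Tregs, 71.9, 87.3 and 30.9 CPM in MLN Tregs and 72.0, 66.2 and 67.6 CPM in spleen Tregs, and heart libraries lay below the spleen (log2 fold change -0.78, SE 0.47, adjusted p = 0.589) but overlapped with the MLN (log2 fold change -0.66, SE 0.47, adjusted p = 0.615). Dnajb12, a J-domain protein of the ER membrane, had 6.73, 25.2 and 15.6 CPM in heart Tregs, 34.7, 19.6 and 6.72 CPM in MLN Tregs and 27.7, 38.3 and 32.7 CPM in spleen Tregs (log2 fold change -1.05, SE 0.71, adjusted p = 0.663 for heart over spleen). Dnajc10, a disulfide reductase of the ER, had 117, 42.8 and 114 CPM in heart Tregs, 122, 74.8 and 75.4 CPM in MLN Tregs and 83.4, 50.8 and 55.9 CPM in spleen Tregs (log2 fold change 0.52, SE 0.47, adjusted p = 1 for MLN over spleen). Hspa13, a microsomal Hsp70 relative, had 24.1, 11.0 and 10.1 CPM in heart Tregs, 6.90, 11.9 and 2.14 CPM in MLN Tregs and 9.13, 2.51 and 10.1 CPM in spleen Tregs (log2 fold change 1.11, SE 0.88, adjusted p = 0.676 for heart over MLN). None of these differences passed edgeR's test.

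Over 10 ER members, a group put together after the values were seen, the median log2 fold change was -0.60 for heart over spleen, 0.10 for heart over MLN, which is -0.16 with upper-quartile scaling, and -0.45 for MLN over spleen. Without spleen library 3 the median was -0.34 for heart over spleen and -0.14 for MLN over spleen, beside 0.28 and 0.02 over all genes. Spleen library 3 was the highest spleen library for 6 of these 10 (60.0%), and for 41.8% of all tested genes with a count in the spleen. The 3 genes with the ER stress element, Hspa5, Hsp90b1 and Dnajc3, were all highest in spleen library 3 among the spleen libraries.

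**Figure D5:**
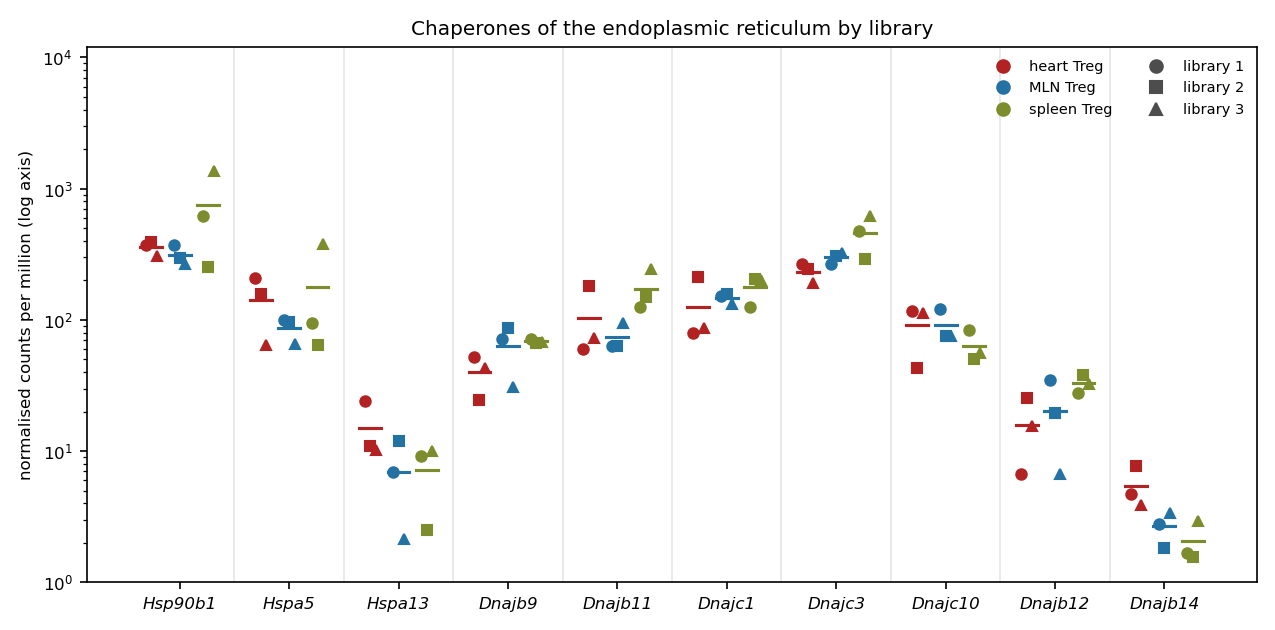
CPM on a log axis (y) of 10 ER chaperones (x) in each library, with heart, MLN and spleen Tregs from left to right within a gene. Symbols are libraries 1 to 3 and short lines are means. Spleen library 3 (triangle) is the highest symbol for Hsp90b1 (1367 CPM), Hspa5 (379 CPM), Dnajb11 and Dnajc3.

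Among the remaining DNAJ genes, Dnajc2 and Dnajc9 had low values in the heart. Dnajc2, a chaperone at the ribosome, had 48.9, 77.6 and 118 CPM in heart Tregs, 143, 245 and 254 CPM in MLN Tregs and 172, 154 and 135 CPM in spleen Tregs, and all heart libraries lay below both organs (log2 fold change -1.39, SE 0.41, adjusted p = 0.13 for heart over MLN, edgeR). Dnajc9, a histone chaperone, had 11.4, 46.1 and 23.4 CPM in heart Tregs, 77.7, 85.9 and 52.7 CPM in MLN Tregs and 72.3, 47.4 and 43.0 CPM in spleen Tregs, and heart libraries lay below the MLN (log2 fold change -1.42, SE 0.55, adjusted p = 0.258) while they overlapped with the spleen (log2 fold change -1.01, SE 0.54, adjusted p = 0.498). Dnajc21, needed to assemble the large ribosomal subunit, went the other way. It had 21.2, 9.85 and 13.2 CPM in heart Tregs, 12.2, 12.6 and 13.9 CPM in MLN Tregs and 3.97, 8.66 and 6.84 CPM in spleen Tregs, with heart libraries above the spleen (log2 fold change 1.18, SE 0.62, adjusted p = 0.472) and MLN libraries above the spleen (log2 fold change 0.99, SE 0.61, adjusted p = 1). None of these passed the test.

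Other DNAJ genes at the extremes of a comparison did not pass either. Dnajc13, an endosomal protein, had 38.4, 46.5 and 113 CPM in heart Tregs, 20.6, 36.1 and 37.6 CPM in MLN Tregs and 39.2, 28.8 and 69.2 CPM in spleen Tregs, and heart libraries lay above the MLN (log2 fold change 1.07, SE 0.56, adjusted p = 0.421, edgeR). Dnajb4, a cytosolic Hsp70 partner, had 33.3, 8.34 and 24.9 CPM in heart Tregs, 13.9, 8.31 and 0.773 CPM in MLN Tregs and 8.19, 10.9 and 10.7 CPM in spleen Tregs (log2 fold change 1.54, SE 0.98, adjusted p = 0.552 for heart over MLN). Dnajc24, needed to make the diphthamide residue of an elongation factor, had 346, 47.5 and 217 CPM in heart Tregs, 443, 302 and 254 CPM in MLN Tregs and 314, 196 and 193 CPM in spleen Tregs (log2 fold change -0.71, SE 0.63, adjusted p = 0.723 for heart over MLN), and heart library 2 was the lowest of the 9. Dnajc11, a mitochondrial membrane protein, had 7.498, 13.9 and 4.68 CPM in heart Tregs, 3.14, 3.76 and 4.56 CPM in MLN Tregs and 10.5, 4.11 and 43.9 CPM in spleen Tregs. Spleen library 3 stood at 43.9 CPM, and the fold changes were -1.17 for heart over spleen (adjusted p = 0.764; 0.25 without spleen library 3) and -2.35 for MLN over spleen (adjusted p = 0.839).

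By role, the median log2 fold change for heart over spleen was 0.35 over 8 tested cytosolic Hsp70 genes other than the inducible pair, -0.10 over 4 DNAJA, 0.49 over 11 DNAJB and -0.23 over 24 DNAJC genes, beside 0.02 over all genes. For heart over MLN these medians were 0.68, -0.44, 0.50 and -0.21, beside 0.12 over all genes. The DNAJB medians rested on heart library 2. Without it they were -0.52 for heart over spleen and 0.12 for heart over MLN, beside -0.06 and -0.01 over all genes. In the first group all 8 fold changes were above 0 for heart over MLN (6 of 8 with upper-quartile scaling), and in DNAJA all 4 were below 0. No member of these 4 groups passed edgeR's test in either comparison.

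Partners of the chaperones outside the families were read from 4 lists: heat shock factors and regulators, cochaperones and exchange factors, the TRiC chaperonin with prefoldin, and the ER unfolded protein response. No gene of these lists passed edgeR's test in any comparison. Of 34 cochaperones, 4 (11.8%) had an unadjusted p under 0.05 in each comparison, against 13.6%, 15.5% and 5.75% of all genes in heart against spleen, heart against MLN and MLN against spleen. The median log2 fold change was -0.34 for heart over spleen, -0.15 for heart over MLN and -0.42 for MLN over spleen. Both medians against the spleen rested on spleen library 3. They were -0.01 and 0.11 without it, beside 0.28 and 0.02 over all genes. Cryab, a small heat shock protein of muscle and lens, had 132, 8.34 and 48.7 CPM in heart libraries, 0, 0.0585 and 0.0116 CPM in MLN libraries and none in any spleen library, at least 4306-fold higher in the heart (edgeR adjusted p = 0.0572; at least 1952-fold without heart library 1). Serpinh1, the collagen chaperone Hsp47, had 24.5, 16.7 and 10.5 CPM in heart Tregs, 0, 0 and 0 CPM in MLN Tregs and 0.264, 0 and 0 CPM in spleen Tregs (log2 fold change 7.62, SE 2.79, adjusted p = 0.302 for heart over spleen). At the low end were Grpel2, the exchange factor of mitochondrial Hsp70, at 14.1, 6.15 and 0.222 CPM in heart Tregs, 30.6, 31.4 and 40.6 CPM in MLN Tregs and 15.8, 34.1 and 21.8 CPM in spleen Tregs (log2 fold change -1.81, SE 1.09, adjusted p = 0.585), and Chordc1, an Hsp90 cochaperone, at 23.4, 17.6 and 31.7 CPM in heart Tregs, 82.6, 102 and 44.6 CPM in MLN Tregs and 65.1, 53.4 and 63.3 CPM in spleen Tregs (log2 fold change -1.32, SE 0.43, adjusted p = 0.188). Among the heart libraries, Cryab and Serpinh1 were both highest in heart library 1. So were the fibroblast and matrix, endothelial, pericyte and smooth muscle, and mast cell lists. Heart library 1 was also the highest heart library for 34.5% of all tested genes with a count in the heart. The cardiomyocyte list was lowest in heart library 1 and highest in heart library 3, where the macrophage and monocyte list and the neutrophil list were highest too. The part of these cells in the Cryab and Serpinh1 values was not tested.

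Of 14 TRiC and prefoldin subunits, which fold actin and tubulin, 11 had a fold change below 0 in the heart against the spleen (9 with DESeq2 size factors) and 11 below 0 against the MLN, with medians of -0.16 and -0.41. Heart libraries lay wholly below the MLN for 6 of 14 (Tcp1, Cct4, Cct5, Cct6a, Cct7 and Cct8; 42.9%, against 11.2% of all genes). Cct5 had 217, 163 and 269 CPM in heart Tregs, 441, 518 and 364 CPM in MLN Tregs and 413, 357 and 352 CPM in spleen Tregs (log2 fold change -0.79, SE 0.30, adjusted p = 0.293 for heart over spleen, edgeR) and Cct7 had 80.0, 139.8 and 61.6 CPM in heart Tregs, 148, 164 and 171 CPM in MLN Tregs and 151, 106 and 229.7 CPM in spleen Tregs (log2 fold change -0.79, SE 0.42, adjusted p = 0.484). At the other end, Pfdn1 had a log2 fold change of 0.42 and Pfdn4 of 1.13, with overlapping libraries. An unadjusted p under 0.05 was found for 1 of the 14 in heart against spleen (7.14%, against 13.6% of all genes), 5 in heart against MLN (35.7%, against 15.5%) and 1 in MLN against spleen (7.14%, against 5.75%). DESeq2 called 1, 3 and 0 of them, against 13.4%, 16.0% and 4.84% of all genes.

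Of 25 tested genes of the ER unfolded protein response, 23 had a fold change below 0 in the MLN against the spleen (median -0.88), and MLN libraries lay wholly below the spleen for 10 of them (40.0%, against 4.56% of all genes): Xbp1, Atf6, Calr, Creld2, Derl3, Ern1, Herpud1, Manf, Pdia4 and Sdf2l1. Without spleen library 3, whose list sum was 7834 CPM against 4301 and 3869 CPM in spleen libraries 1 and 2, 21 of the 25 were below 0 (median -0.47) and 11 lay wholly below the spleen (44.0%, against 8.49% of all genes). For heart over spleen the median was -0.24. For heart over MLN it was 0.31, with 17 of 25 above 0 (0.01 and 13 of 25 with upper-quartile scaling). Libraries lay wholly above the MLN for Ern1 (log2 fold change 4.71, edgeR adjusted p = 0.0857), Atf6 (2.09, adjusted p = 0.0686), Atf3 and P4hb, which is 16.0% of the list against 14.9% of all genes. The macrophage and monocyte list, with 14 of 14 genes wholly above the MLN in the heart, and the dissociation list, with 16 of 17 fold changes above 0, stood higher in the heart than in the MLN too, and their part was not tested.

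The extremes of the unfolded protein response list in heart over spleen were Derl3, an ER degradation factor of secretory cells, at 0, 0.0679 and 0 CPM in heart Tregs, 0.0960, 0.0315 and 0 CPM in MLN Tregs and 1.62, 2.65 and 37.4 CPM in spleen Tregs (log2 fold change -9.21, SE 3.05, adjusted p = 0.203), Creld2 at 46.1, 74.1 and 94.6 CPM in heart Tregs, 109.8, 55.01 and 78.5 CPM in MLN Tregs and 194, 148 and 1364 CPM in spleen Tregs (log2 fold change -2.99, SE 0.87, adjusted p = 0.143), Ern1, which encodes the sensor Ire1, at 54.6, 37.2 and 19.1 CPM in heart Tregs, 0.547, 3.38 and 0.305 CPM in MLN Tregs and 12.2, 21.9 and 5.38 CPM in spleen Tregs (log2 fold change 1.49, SE 0.99, adjusted p = 0.661), and Atf3, a stress transcription factor that also belongs to the dissociation list, at 1312, 1313 and 1051 CPM in heart Tregs, 99.7, 101 and 71.2 CPM in MLN Tregs and 18.1, 175 and 486 CPM in spleen Tregs (log2 fold change 2.44, SE 0.90, adjusted p = 0.273). Without spleen library 3 the fold changes were -6.51 for Derl3 and -1.25 for Creld2. Other lists also stood lower in the MLN than in the spleen. Plasma cell markers summed to 846 to 3335 CPM in MLN libraries, against 5319 to 18492 CPM in spleen libraries, and 4 of their 8 genes had MLN libraries wholly below the spleen. Macrophage and monocyte genes summed to 340.01 to 848 CPM in MLN and 1159 to 2697 CPM in spleen libraries, with 14 of 14 below 0 (median -2.60) and 9 wholly below. Of the 17 dissociation genes, which include Atf3, 16 were below 0 (median -1.32) and 2 wholly below. B cell genes summed to 956 to 3360 CPM in MLN and 4131 to 5407 CPM in spleen libraries. The part of these cells and of dissociation was not tested. An unadjusted p under 0.05 was found for 5 of the 25 in heart against spleen (20.0%, against 13.6% of all genes), 4 in heart against MLN (16.0%, against 15.5%) and 7 in MLN against spleen (28.0%, against 5.75%). DESeq2 called 2, 4 and 4 of them, against 13.4%, 16.0% and 4.84% of all genes. Of the heat shock factor list, 4 of 7 genes were tested. Hsf1, the factor that induces heat shock genes, had 4.201, 8.76 and 7.34 CPM in heart Tregs, 8.12, 3.03 and 20.2 CPM in MLN Tregs and 14.96, 14.8 and 62.1 CPM in spleen Tregs, with heart libraries below the spleen (log2 fold change -2.18, SE 0.91, adjusted p = 0.343), and its binding partner Hsbp1 had 362, 76.2 and 185 CPM in heart Tregs, 162, 145 and 128 CPM in MLN Tregs and 125, 181 and 74.8 CPM in spleen Tregs (log2 fold change 0.71, SE 0.56, adjusted p = 0.764). The Hsf1 fold change was -1.14 without spleen library 3.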

How the data were processed

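The table the authors deposited holds raw counts of reads for each gene in 9 libraries, without normalization. Per the submitters' processing notes, CASAVA 1.8.2, HISAT2, HTSeq 0.6.0 and mm10 were used. Strand setting and annotation release are not given there, so reads of overlapping or near-identical genes are uncertain. Coordinates, exon lengths and shared 50-base stretches came from GENCODE vM21 (GRCm38), in which all 72 members were found, and promoter windows from RefSeq (GRCm38.p6).

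The test was that of edgeR 4.0.16 in R 4.3.3: TMM scaling, the package's low-count filter (minimum count 10, minimum total 15), and 1 quasi-likelihood model of all 9 libraries, organ as its term (6 residual degrees of freedom), two-sided, with Benjamini-Hochberg adjustment over 16609 genes. DESeq2 1.42.0, limma-voom (limma 3.58.1), other scalings and filters, a replicate block and fits without 1 library were alternatives. SEs derive from the F statistic. A count of 0 was taken as up to 3 counts per library for bounds. Floors and intervals cover counting error only, since PCR copies are not independent molecules. The median biological coefficient of variation was 102%, and all 9 pairs of libraries within an organ differed by more than sampling noise. Tables were summarised in Python 3.11.15.

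Named members were the called ones, the 5 highest and 5 lowest by fold change per comparison at 10 CPM or more, and 15 core chaperones; from the partner lists, the 2 highest and 2 lowest in heart against spleen were named. The members and lists were chosen with earlier results of these data known.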

Additional observations from a re-analysis of the deposited data

How the results depend on the processing

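Of 61 members, 1 was called in heart against spleen, and this count was kept with DESeq2 size factors in edgeR and with Hspa1a and Hspa1b added together. It was 0 with upper-quartile scaling, 0 without the low-count filter, 0 with only the 2 organs compared and 0 without heart 2, MLN 3 and spleen 3; it was 9 with DESeq2 and 5 with limma-voom. A stricter filter of 1 CPM in 6 libraries leaves Hspa1b out of the test, so its count of 0 follows from the filter. Leaving out 1 library at a time gave 0 to 0 calls. In heart against MLN the count of 0 became 5 with DESeq2 and 2 with limma-voom, and in MLN against spleen it became 2 with DESeq2. The cause of these differences was not tested.

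No pairing by library number showed in these values. Deviations of same-numbered libraries correlated between -0.127 and 0.114, and 1 of 9 libraries correlated best with its own number in both other organs. With 3 libraries per organ, these correlations cannot exclude that same-numbered libraries are paired. With the replicate block, 0 members were called in heart against spleen and 0 in each other comparison, and the fold change for heart over spleen was 0.17 for Hspa9 and -0.27 for Hsph1.

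Of the named genes, 9 fold changes of 64 turned direction somewhere, none of them called, and 39 moved by over 1.5 times in fold when 1 library was left out. Without the 3 libraries that stand apart, heart over spleen was 0.31 for Hsp90ab1, 0.77 for Hspa5, 0.89 for Hspa9 and 0.17 for Hspd1, and MLN over spleen was 0.28 for Hspa5. With upper-quartile scaling, heart over spleen was -0.118 for Hspe1 and -0.068 for Hsph1, and with limma-voom it was 0.24 for Hspa9, -0.083 for Hspe1 and -0.65 for Hsph1. Leaving out 1 library at a time, heart over spleen ranged from -1.68 to 0.25 for Dnajc11, -0.55 to 0.61 for Hsp90ab1, -0.69 to 14.28 for Hspa12a (the upper end fitted against a spleen without counts), -0.70 to 0.84 for Hspa5, -0.45 to 1.11 for Hspa9, -0.88 to 0.15 for Hspd1, -0.47 to 0.49 for Hspe1 and -0.59 to 0.90 for Hsph1, and MLN over spleen from -1.45 to 0.13 for Hspa5. Hspa1b in heart over spleen was called in 3 of 17 alternatives, with adjusted p-values from 1.06e-15 to 0.278.

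In depth alone, 3 counts equal 0.0104 to 0.0193 CPM per library. Detection also varied between libraries of 1 organ at higher levels: Dnajc18 had 46.3, 11.3 and 0 CPM in heart libraries 1, 2 and 3.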
